A study of Oryctolagus cuniculus with 20 samples.

Results

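CIDEA, KLB, ACACA and CYP3E1 are 4 fat-related genes of the 23669 genes counted in rabbit tricuspid valves. They were chosen by values measured in these same valves. CYP3E1, KLB and CIDEA were selected on the contrast of pergolide with non-treated valves, where they had the largest log2 fold changes among higher genes with a symbol, a mean of at least 1 log2 CPM and no overlap between the groups. Their log2 fold changes there were 3.59 for CYP3E1, 2.94 for KLB and 2.86 for CIDEA, and ABCD2 at 2.64 stood just outside. ACACA was taken from the study's list of genes changed after both pergolide and dexfenfluramine. All values from these contrasts are therefore given for the 4 genes as a description with no test. All 4 of 4 passed the filter on low counts, which kept 8683 genes, and KLB, CIDEA and CYP3E1 would not have passed it on their non-treated valves alone.

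Fat cells store fatty acids as triglyceride in lipid droplets. They make part of these fatty acids from acetyl-CoA, and respond to circulating fibroblast growth factors through receptor complexes that contain klotho proteins. A tricuspid valve consists mainly of interstitial cells in a collagen-rich matrix under an endothelial layer, and it is attached to heart muscle.

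The valves came from 20 female New Zealand white rabbits, 8 weeks old at the start, with 5 animals in each of 4 groups. For 16 weeks the animals drank water alone (non-treated) or took a compound in it by mouth, with daily doses per kg of body weight of 80 mg for serotonin, 0.5 mg for pergolide and 20 mg for dexfenfluramine by the labels and methods, although the study's text gives a lower dexfenfluramine dose in another place. Pergolide is a dopamine agonist, and dexfenfluramine is an appetite suppressant that releases serotonin. Total RNA of each valve was depleted of ribosomal RNA and sequenced as 1 stranded library, so each value below belongs to 1 animal.

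The total count of a valve lay between 3247091 and 5921025 reads. The non-treated group had a median total of 4573978 reads, the serotonin group 3890579, the pergolide group 4794216 and the dexfenfluramine group 4294294. Levels are counts per 1000000 reads (CPM) after scaling by edgeR's TMM method. They are not divided by gene length, so a level is compared between valves of 1 gene and not between genes. A gene was called higher or lower when the edgeR quasi-likelihood test gave a Benjamini-Hochberg adjusted p under 0.05 over the 8683 genes, in 1 fit of all 20 valves. Of the 8683 genes, 1372 had an unadjusted p under 0.05 in this test after serotonin, 3219 after pergolide and 3532 after dexfenfluramine. Dexfenfluramine against serotonin gave 3554.

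One library stood apart. Dexfenfluramine valve 3 had the lowest total count, 3247091, and the highest TMM factor, 1.72. It held 1 read of CIDEA and no read of KLB or CYP3E1, and a floor of 3 reads equals 0.540 CPM there, for counting error only. Its 7 adipocyte markers summed to 19.6 CPM, against 74.3 CPM in the lowest of the other valves. Its 9 cardiomyocyte markers summed to 12325 CPM, against 47294 CPM in the next lowest valve. Its 9 valvular interstitial cell markers summed to 17776 CPM, above the 13834 CPM of the next highest valve. The dexfenfluramine fold changes of the 4 genes and of the adipocyte markers are therefore given with and without this valve.

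**Figure D1:**
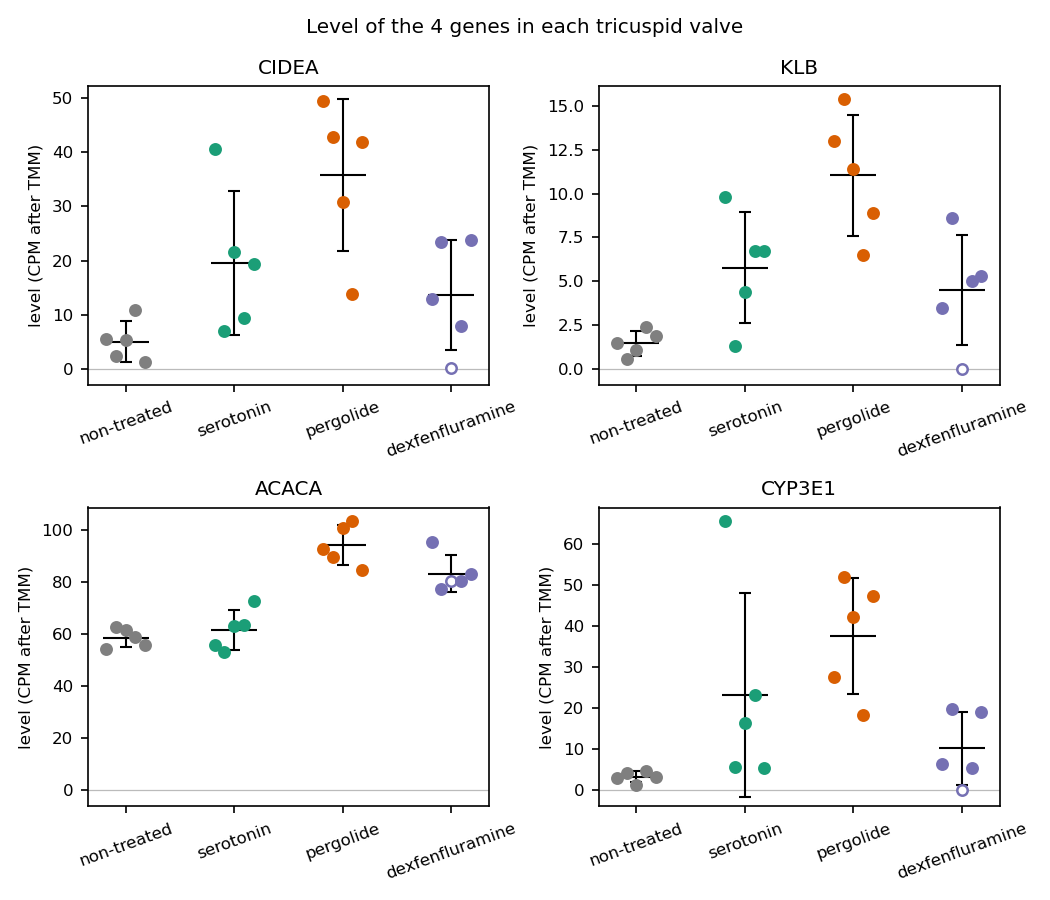
Level of CIDEA, KLB, ACACA and CYP3E1 (CPM after TMM, vertical axes differ) in each of 5 valves per group, with the mean and SD as bars and dexfenfluramine valve 3 as an open point. CIDEA, KLB and CYP3E1 reach their highest group means after pergolide, at 35.7, 11.0 and 37.5 CPM, while ACACA separates both drug groups from the non-treated and serotonin valves.

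KLB (ENSOCUG00000009086) encodes beta-klotho, the co-receptor through which FGF21 and FGF19 act on their receptors in fat and liver. Its level in non-treated valves 1 to 5 was 1.44, 0.542, 1.05, 2.35 and 1.84 CPM, from 2 to 8 reads a valve. Serotonin valves 1 to 5 stood at 9.78, 1.27, 4.38, 6.70 and 6.74 CPM, from 4 to 42 reads. KLB was thus near the limit of detection in non-treated valves, and 4 of 5 serotonin valves lay above all of them, with valve 2 within their range. Pergolide valves 1 to 5 stood at 13.03, 15.4, 11.4, 6.51 and 8.89 CPM, from 37 to 90 reads. Dexfenfluramine valves 1 to 5 stood at 3.44, 8.62, 0, 5.03 and 5.29 CPM, from 0 to 50 reads. Every pergolide valve exceeded every non-treated valve, and 4 of 5 dexfenfluramine valves did so, valve 3 being at 0.

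The mean KLB level was 1.45 ± 0.698 CPM (SD, n = 5) in non-treated valves, 4.48 ± 3.13 after dexfenfluramine, 5.78 ± 3.17 after serotonin and 11.0 ± 3.46 after pergolide. In this order of KLB levels the dexfenfluramine mean lay within 1 of its SDs of both neighbours, the non-treated and the serotonin means. The log2 fold change against non-treated valves was 2.94 after pergolide, a 7.66-fold difference, which was the contrast of the choice and was not tested. After serotonin it was 2.04 (95% confidence interval 0.71 to 3.37, edgeR quasi-likelihood test, Benjamini-Hochberg adjusted p = 0.12), with 4 of 5 valves above the non-treated mean. After dexfenfluramine it was 1.65 (0.33 to 2.97, Benjamini-Hochberg adjusted p = 0.056 by edgeR), again with 4 of 5 valves above that mean. Without dexfenfluramine valve 3 the KLB difference was 1.97 (SE 0.46), with an adjusted p of 0.0041 (edgeR, Benjamini-Hochberg) and a dexfenfluramine mean of 5.44 ± 2.11 CPM (SD, n = 4). Nothing is read from that p, since valve 3 was set apart in part by its lack of KLB reads. Nothing is read from the serotonin and dexfenfluramine tests against non-treated valves either, as they share these valves with the contrast that chose KLB. The contrast of dexfenfluramine with serotonin shares no valve with it, and there KLB differed by -0.39 (-1.45 to 0.68, Benjamini-Hochberg adjusted p = 0.61 by edgeR), with 4 of 5 dexfenfluramine valves below the serotonin mean. Without valve 3 that difference was -0.07, with an adjusted p of 0.92 (edgeR, Benjamini-Hochberg), and without serotonin valve 1 it was -0.10.

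KLB acts with receptors of the list of klotho and FGF receptor signalling, which has 23 genes, of which 5 had a symbol and were tested. The symbols come only from genes that the study listed as changed in these valves, so no count over a list here is independent evidence. After pergolide 3 of the 5 were called higher and 0 lower by edgeR, with 3 at an unadjusted p under 0.05, against 12.1% called higher and 12.7% lower of all tested genes, and DESeq2 and limma-voom gave the counts of 3 and 0 as well. DUSP6, a phosphatase that limits ERK downstream of FGF receptors, rose by a log2 fold change of 1.23 (SE 0.22, edgeR quasi-likelihood, Benjamini-Hochberg adjusted p = 0.00038). The receptor FGFR2 and the feedback inhibitor SPRY1 rose by 0.63 each, and PTPN11, a phosphatase that relays receptor signals, stood at -0.13 without passing the test. After dexfenfluramine the same 3 genes were called higher, SPRY1 by 0.66, and the other 2 were called lower, PTPN11 at -0.31 and SOS1, an exchange factor for Ras, at -0.19, against 13.5% higher and 15.4% lower of all tested genes. After serotonin SOS1 was the only 1 of the 5 called, and it was higher there, by 0.30, against 1.04% called higher of all tested genes. This call was lost without non-treated valve 2 or 5 or serotonin valve 1, and with only the groups compared, where 0 genes were called. The median log2 fold change of the 5 genes was 0.63 after pergolide, 0.53 after dexfenfluramine and 0.30 after serotonin, against 0.02, 0.03 and 0.01 over all tested genes.

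ACACA (ENSOCUG00000014453) encodes acetyl-CoA carboxylase alpha, which makes malonyl-CoA in the committed step of fatty acid synthesis. Its level in non-treated valves 1 to 5 was 54.5, 62.6, 61.8, 58.8 and 55.9 CPM, from 151 to 352 reads a valve. Serotonin valves 1 to 5 stood at 55.7, 53.2, 63.1, 63.5 and 72.8 CPM, from 168 to 259 reads. These groups overlapped, with 3 of 5 serotonin valves above the highest non-treated valve and 1 below the lowest. Pergolide valves 1 to 5 stood at 92.9, 89.7, 100.7, 103.6 and 84.9 CPM, from 477 to 589 reads. Dexfenfluramine valves 1 to 5 stood at 95.3, 77.6, 80.4, 80.3 and 83.2 CPM, from 431 to 519 reads. Every valve of either drug lay above every non-treated and every serotonin valve, dexfenfluramine valve 3 included. Nothing is read from this separation, since both drugs entered the choice of ACACA.

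The mean ACACA level was 58.7 ± 3.55 CPM (SD, n = 5) in non-treated valves, 61.6 ± 7.69 after serotonin, 83.4 ± 6.97 after dexfenfluramine and 94.3 ± 7.74 after pergolide. In that order the non-treated and serotonin groups are neighbours whose means differ by less than the serotonin SD. The spread of ACACA within a group was small, with a coefficient of variation between 6.05% and 12.5%. Its log2 fold change against non-treated valves was 0.68 (SE 0.09) after pergolide, a 1.61-fold difference, and 0.50 (SE 0.09) after dexfenfluramine, a 1.42-fold difference. Against serotonin it was 0.61 after pergolide and 0.43 after dexfenfluramine, and none of these 4 differences was tested, since the choice of ACACA used both drugs. Without valve 3 the dexfenfluramine difference was 0.52 from non-treated and 0.45 from serotonin valves, and the mean was 81.7 ± 7.60 CPM (SD, n = 4). Only serotonin against non-treated was tested for ACACA, and it gave 0.07 (-0.12 to 0.26, Benjamini-Hochberg adjusted p = 0.75 by edgeR), with 3 of 5 valves above the non-treated mean. Nothing is read from this p, since the study's list set both drugs against the same non-treated valves. ACACA stood at place 620 of the 8683 tested genes by its log2 fold change after pergolide, at place 1209 after dexfenfluramine and at place 3593 after serotonin.

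The list of fatty acid and triglyceride synthesis around ACACA has 31 genes, of which 12 had a symbol and 11 were tested. After pergolide 6 were called higher and 0 lower by edgeR, with 8 at an unadjusted p under 0.05, 6 and 0 by DESeq2, and 5 and 0 by limma-voom, against 12.1% higher and 12.7% lower of all tested genes. THRSP, a lipogenic regulator that acts on acetyl-CoA carboxylase, rose by a log2 fold change of 2.79 (SE 0.64, edgeR quasi-likelihood, Benjamini-Hochberg adjusted p = 0.0033). The elongases ELOVL6 and ELOVL5 rose by 1.98 (SE 0.57) and 0.46 (SE 0.12), and GPAM, which starts triglyceride synthesis, rose by 0.57 (SE 0.17). A non-treated valve held 1 to 5 reads of THRSP and 0 to 6 reads of ELOVL6. Without the pergolide valves neither THRSP nor ELOVL6 would have passed the filter on low counts. Nothing is therefore read from either call, both of which are among the 6. After dexfenfluramine 3 of 11 were called higher by each of the 3 tools, among them ELOVL2 at 1.11 and GPAM at 0.52, and DESeq2 alone also called 1 lower, against 13.5% higher and 15.4% lower of all tested genes by edgeR. After serotonin edgeR called 0 of 11, against 1.04% called higher and 0.150% lower of all tested genes. An unadjusted p under 0.05 was found for 1 of the 11 by edgeR, while DESeq2 called 1 and limma-voom 0. The median log2 fold change was 0.57 after pergolide, 0.34 after dexfenfluramine and 0.10 after serotonin. SCD, a desaturase of the same list, had too few reads to be tested, with means of 0.298 CPM in non-treated valves and 3.57 CPM after pergolide.

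AMPK phosphorylates the ACACA protein and lowers its activity, and 5 of the 12 listed AMPK subunits and upstream kinases were tested. PRKAA1, a catalytic subunit, fell by 0.51 on the log2 scale after pergolide (edgeR quasi-likelihood, Benjamini-Hochberg adjusted p = 0.00016), and by 0.41 after dexfenfluramine. The kinase CAMKK1 rose by 0.98 after pergolide and 0.99 after dexfenfluramine. CAMKK2 rose by 0.88 after dexfenfluramine and stood at 0.44 after pergolide, and PRKAG2 at -0.23 after pergolide, both without passing the test there. Of the 5, edgeR called 1 higher and 1 lower after pergolide, and 2 and 1 after dexfenfluramine. Over all tested genes it called 12.1% higher and 12.7% lower after pergolide, and 13.5% and 15.4% after dexfenfluramine. After serotonin edgeR called 0 of the 5, against 1.04% called higher and 0.150% lower of all tested genes. An unadjusted p under 0.05 was found for 1 of the 5 by edgeR, while DESeq2 called 1 and limma-voom 0. The median over the 5 was -0.09 after pergolide, -0.38 after dexfenfluramine and 0.03 after serotonin.

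Malonyl-CoA, the product of ACACA, inhibits the entry of fatty acids into mitochondria, and 9 of 22 listed fatty acid oxidation genes were tested. After pergolide 0 were called higher and 3 lower by edgeR, with 5 at an unadjusted p under 0.05, 4 lower by DESeq2 and 1 lower by limma-voom, against 12.7% lower of all tested genes. PDK4, a kinase that restrains the use of pyruvate, fell by 1.24 on the log2 scale, and the oxidation enzymes ECHS1 and ACADVL fell by 0.69 and 0.68. ACADM stood at -0.54 after pergolide without passing the test. After dexfenfluramine 4 of 9 were called lower, ECHS1 at -1.06 and ACADM at -0.90 among them, against 15.4% of all tested genes. These dexfenfluramine values include valve 3, the valve with the lowest cardiomyocyte marker sum, and are given only with it. After serotonin edgeR called 0 of the 9, against 1.04% called higher and 0.150% lower of all tested genes. An unadjusted p under 0.05 was found for 2 of the 9 by edgeR, and DESeq2 and limma-voom called 0. Medians were -0.54 after pergolide, -0.71 after dexfenfluramine and -0.26 after serotonin. Beside them, 9 cardiomyocyte markers had medians of -0.78, -1.23 and -0.53, and the part of heart muscle in the oxidation values was not tested.

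**Figure D2:**
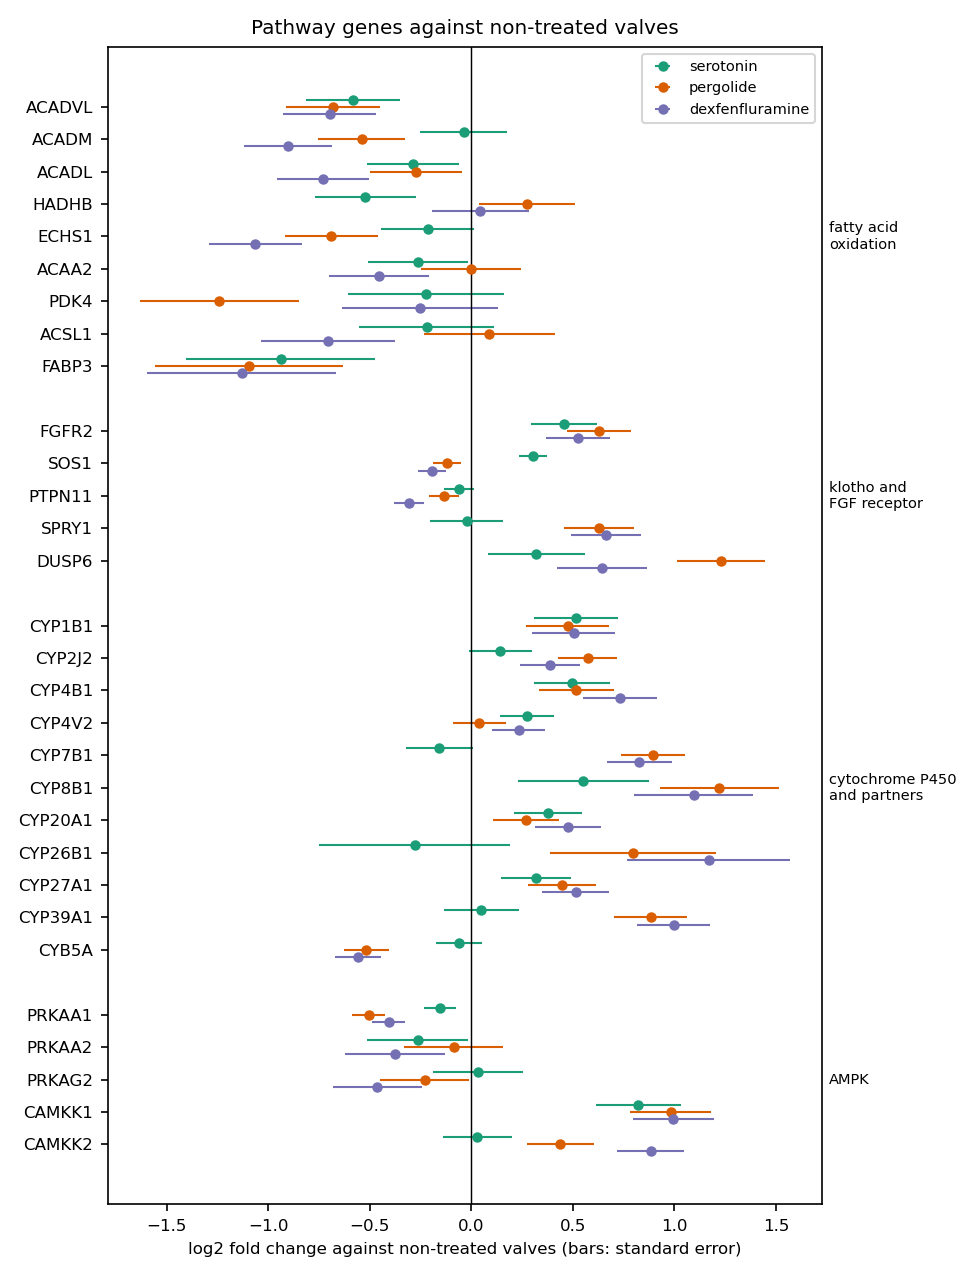
Log2 fold change against non-treated valves, with its standard error, of each tested gene of the lists of fatty acid oxidation, klotho and FGF receptor signalling, cytochrome P450 and AMPK, for 5 valves per treatment. The median of the oxidation genes lies at -0.54 after pergolide and -0.71 after dexfenfluramine, and that of the klotho and FGF receptor genes at 0.63 and 0.53.

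CIDEA (ENSOCUG00000011380) encodes a lipid droplet protein that promotes the growth of droplets and is best known from brown and beige fat. Its level in non-treated valves 1 to 5 was 5.41, 2.44, 5.27, 10.9 and 1.15 CPM, from 5 to 37 reads a valve. Serotonin valves 1 to 5 stood at 40.5, 6.96, 21.6, 9.39 and 19.4 CPM, from 22 to 174 reads. Serotonin valves 1, 3 and 5 lay above every non-treated valve, and valves 2 and 4 lay below non-treated valve 4. Pergolide valves 1 to 5 stood at 49.4, 42.9, 30.8, 13.7 and 42.0 CPM, from 78 to 258 reads. Dexfenfluramine valves 1 to 5 stood at 12.9, 23.4, 0.180, 7.83 and 23.9 CPM, from 1 to 149 reads. Every pergolide valve exceeded every non-treated valve, and dexfenfluramine valve 3 lay below all of them.

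The mean CIDEA level was 5.03 ± 3.75 CPM (SD, n = 5) in non-treated valves, 13.7 ± 10.2 after dexfenfluramine, 19.6 ± 13.3 after serotonin and 35.7 ± 14.0 after pergolide. The dexfenfluramine mean of CIDEA again lay within 1 of its SDs of both neighbours, while the pergolide mean lay further above the serotonin mean than either SD. The log2 fold change against non-treated valves was 2.86 after pergolide, a 7.27-fold difference, which was not tested. After serotonin it was 2.01 (0.60 to 3.43, Benjamini-Hochberg adjusted p = 0.15 by edgeR), with 5 of 5 valves above the non-treated mean. After dexfenfluramine the CIDEA difference was 1.48 (0.07 to 2.90, Benjamini-Hochberg adjusted p = 0.11 by edgeR), with 4 of 5 valves above that mean. Without valve 3 it was 1.80 (SE 0.55), with an adjusted p of 0.021 (edgeR, Benjamini-Hochberg) and a mean of 16.5 ± 7.73 CPM (SD, n = 4). Nothing is read from this p, since that valve was set apart in part by its single CIDEA read. The non-treated valves also entered the choice of CIDEA, so nothing is read from the serotonin and dexfenfluramine tests against them. Against serotonin, dexfenfluramine differed by -0.53 (-1.74 to 0.68, Benjamini-Hochberg adjusted p = 0.53 by edgeR) in CIDEA, with 3 of 5 valves below the serotonin mean, and without valve 3 by -0.21 (adjusted p = 0.78). Without serotonin valve 1 this CIDEA difference was -0.06.

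Of 19 listed markers of brown and beige fat cells, 1 had a symbol and was tested, PPARGC1A, a coactivator of mitochondrial genes that is also abundant in heart muscle. Its mean was 45.0 CPM after dexfenfluramine, 58.9 after pergolide, 69.5 after serotonin and 104.8 in non-treated valves, highest there where CIDEA was lowest. It fell by 1.21 on the log2 scale after dexfenfluramine (edgeR quasi-likelihood, Benjamini-Hochberg adjusted p = 0.0055), and stood at -0.59 after serotonin without passing the test. After pergolide it stood at -0.83 with an edgeR adjusted p that rounds to 0.05 without passing the threshold, while DESeq2 called it lower and limma-voom did not. The dexfenfluramine values of PPARGC1A include valve 3, at 15.1 CPM, with 39.8 CPM in the next lowest valve of that group. Of 18 listed lipid droplet proteins and lipases, 2 had a symbol and were tested. PLIN2, which coats droplets in many cell types, rose by 0.51 after dexfenfluramine (adjusted p = 0.013 by edgeR and Benjamini-Hochberg) and stood at 0.35 after pergolide. DGAT2, which completes triglycerides and is also in the list of fatty acid and triglyceride synthesis, stood at 1.14 after pergolide and 0.03 after dexfenfluramine. Neither value passed the test. The dexfenfluramine value of DGAT2 includes valve 3, at 1.80 CPM, with 11.4 CPM in the next lowest valve of that group.

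CYP3E1 (ENSOCUG00000017185) is by its name a member of the cytochrome P450 family 3, whose best-known members oxidise steroids and drugs in the liver. Its level in non-treated valves 1 to 5 was 2.89, 4.06, 1.23, 4.71 and 3.22 CPM, from 7 to 16 reads a valve. Serotonin valves 1 to 5 stood at 65.5, 5.70, 16.4, 23.1 and 5.34 CPM, from 18 to 281 reads. All 5 serotonin valves lay above every non-treated valve, a separation found for 2.05% of all tested genes. Nothing is read from it, since the same non-treated valves entered the choice of CYP3E1. Serotonin valve 1 held the highest CYP3E1 level of all 20 valves. Pergolide valves 1 to 5 stood at 27.6, 51.9, 42.1, 18.3 and 47.3 CPM, from 104 to 304 reads. Dexfenfluramine valves 1 to 5 stood at 6.45, 19.8, 0, 5.41 and 19.1 CPM, from 0 to 119 reads. Dexfenfluramine valves 1, 2, 4 and 5 exceeded every non-treated valve, and valve 3 was at 0.

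The mean CYP3E1 level was 3.22 ± 1.32 CPM (SD, n = 5) in non-treated valves, 10.2 ± 8.84 after dexfenfluramine, 23.2 ± 24.8 after serotonin and 37.5 ± 14.1 after pergolide. Serotonin valve 1 widened its group to a coefficient of variation of 106.9%, so that both neighbouring means lay within the SD of that group, and the dexfenfluramine mean lay within 1 of its own SDs of the non-treated mean. The log2 fold change against non-treated valves was 3.59 after pergolide, a 12.0-fold difference, which was not tested. After serotonin it was 2.93 (1.29 to 4.56, Benjamini-Hochberg adjusted p = 0.062 by edgeR), with 5 of 5 valves above the non-treated mean, and without serotonin valve 1 it was 2.03 (adjusted p = 0.25). After dexfenfluramine the CYP3E1 difference was 1.73 (0.03 to 3.43, Benjamini-Hochberg adjusted p = 0.12 by edgeR), with 4 of 5 valves above that mean. Without valve 3 it was 2.05 (SE 0.70), with an adjusted p of 0.037 (edgeR, Benjamini-Hochberg) and a mean of 12.3 ± 7.60 CPM (SD, n = 4). From this p nothing is read either, as valve 3 was set apart in part by its lack of CYP3E1 reads. The non-treated valves also entered the choice, so nothing is read from the serotonin and dexfenfluramine tests against them. Against serotonin, dexfenfluramine differed by -1.20 (-2.53 to 0.14, Benjamini-Hochberg adjusted p = 0.17 by edgeR) in CYP3E1, with 5 of 5 valves below the serotonin mean, and without valve 3 by -0.88 (adjusted p = 0.26). Without serotonin valve 1 this CYP3E1 difference was -0.30. Reads that could come from a related cytochrome P450 gene were not separated from those of CYP3E1 here.

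The list of cytochrome P450 genes and their partners has 22 genes other than CYP3E1, of which 11 had a symbol and were tested. After pergolide edgeR called 5 higher, or limma-voom 4, and 1 lower, against 12.1% higher and 12.7% lower of all tested genes. After dexfenfluramine each tool called 7 higher and 1 lower, against 13.5% higher and 15.4% lower by edgeR. CYP7B1 and CYP39A1, which hydroxylate oxysterols, rose by 0.89 and 0.88 after pergolide and by 0.83 and 1.00 after dexfenfluramine (edgeR quasi-likelihood, largest Benjamini-Hochberg adjusted p = 0.0013). CYP8B1, an enzyme of bile acid synthesis, rose by 1.22 after pergolide, and the electron carrier CYB5A fell by 0.52. After serotonin edgeR called 0 of the 11, against 1.04% called higher and 0.150% lower of all tested genes. An unadjusted p under 0.05 was found for 3 of the 11 by edgeR, and DESeq2 and limma-voom called 0. The median was 0.52 after pergolide, 0.51 after dexfenfluramine and 0.27 after serotonin.

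Over the 4 genes together, edgeR called 0 of 4 after serotonin, with 3 at an unadjusted p under 0.05, against 1.04% called higher and 0.150% called lower of all tested genes. For the same comparison DESeq2 called 2 higher, KLB and CYP3E1, with 3 at an unadjusted p under 0.05, and limma-voom called 0, with 0 at that level. Nothing is read from these counts, since the same non-treated valves entered the choice of the 4 genes. The number of all genes called after serotonin changed with single valves: 103 were called with all valves, 257 without non-treated valve 3, 0 without non-treated valve 2 or 5 or serotonin valve 1, 3 without non-treated valve 4, and 4, 21 and 50 without serotonin valves 2, 4 and 5. After dexfenfluramine edgeR called 0 of the 3 tested genes CIDEA, KLB and CYP3E1, with 3 at an unadjusted p under 0.05, against 13.5% called higher and 15.4% lower of all tested genes. DESeq2 called KLB, from which nothing is read for the same reason, and limma-voom called 0. By limma-voom the dexfenfluramine differences were smaller, 0.78 for KLB and 0.85 for CIDEA (adjusted p = 0.62 for each, Benjamini-Hochberg) and 0.59 for CYP3E1 (adjusted p = 0.78). Without dexfenfluramine valve 3 edgeR called all 3 of them higher, against 11.3% of the genes tested then. Nothing is read from this count, since that valve was set apart in part by its few reads of these genes, and the non-treated valves also entered their choice. Against serotonin, dexfenfluramine gave 0 calls among the 3 by edgeR, DESeq2 and limma-voom, with 0 at an unadjusted p under 0.05 in each, against 13.9% called higher and 16.4% lower of all tested genes. The limma-voom differences there were -1.12 for KLB, -1.28 for CIDEA and -1.92 for CYP3E1. Valves did not overlap between pergolide and non-treated for 4 of 4 genes, which the choice fixed for 3 of them, against 7.95% of all tested genes. For dexfenfluramine this held for 1 of 4, ACACA, against 8.26%, and nothing is read from either count.

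Between the drugs, the log2 difference of dexfenfluramine from pergolide was -1.28 for KLB, -1.38 for CIDEA, -1.86 for CYP3E1 and -0.18 for ACACA, with no test since pergolide entered the choice. Without dexfenfluramine valve 3 these differences were -0.96, -1.06, -1.54 and -0.17. Pergolide differed from serotonin by 0.90 for KLB, 0.85 for CIDEA, 0.66 for CYP3E1 and 0.61 for ACACA, also with no test. Only for ACACA did all pergolide valves exceed all serotonin valves. The share of all tested genes with that separation was not counted, and nothing is read from it, since pergolide entered the choice. Pergolide valve 4 had the lowest level of its group for KLB, CIDEA and CYP3E1 and the highest for ACACA, and serotonin valve 1 had the highest of its group for KLB, CIDEA and CYP3E1.

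Markers of fat cells were called higher after pergolide, the group with the highest KLB, CIDEA and CYP3E1 means, and in RNA of whole valves more cells of a type and more RNA per cell, or fewer cells and less RNA per cell, cannot be told apart. Of 20 listed adipocyte markers, 7 had a symbol and 6 were tested. After pergolide edgeR called 5 of the 6 higher and 0 lower, with 5 at an unadjusted p under 0.05, against 12.1% higher and 12.7% lower of all tested genes. It called 2 without non-treated valve 2 or 5, and 3 without pergolide valve 1, 2 or 5. DESeq2 also called 5, and limma-voom called 3. As in every list here, the symbols come only from genes the study listed as changed, so these counts are not independent evidence. PPARG, the regulator of fat cell differentiation, rose by a log2 fold change of 2.03 (SE 0.50, edgeR quasi-likelihood, Benjamini-Hochberg adjusted p = 0.0051) after pergolide. The glycerol channel AQP7 rose by 2.39 (SE 0.58), and the hormones leptin (LEP) and adiponectin (ADIPOQ) by 2.25 (SE 0.71) and 1.46 (SE 0.51). AQP7 had 1 to 3 reads in a non-treated valve and 11 to 25 in a pergolide valve. Without the pergolide valves AQP7 would not have passed the filter on low counts. Nothing is therefore read from its call, which is 1 of the 5. RBP4, a retinol carrier, rose by 0.57 (SE 0.18), while the fatty acid transporter CD36 stood at 0.66 without passing the test.

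After serotonin edgeR called 0 of the 6 adipocyte markers, against 1.04% called higher and 0.150% lower of all tested genes. An unadjusted p under 0.05 was found for 2 of the 6 by edgeR, and DESeq2 and limma-voom called 0. The log2 fold changes of these markers were 1.63 for LEP, 1.57 for PPARG, 0.80 for AQP7, 0.77 for ADIPOQ, 0.33 for RBP4 and -0.11 for CD36. After dexfenfluramine edgeR, DESeq2 and limma-voom called 0 of 6, with 0 at an unadjusted p under 0.05 in each. Of all tested genes edgeR called 13.5% higher and 15.4% lower after dexfenfluramine. The marker values there were 1.00 for PPARG, 0.92 for AQP7, 0.66 for LEP, 0.52 for ADIPOQ, -0.05 for CD36 and -0.09 for RBP4. Without dexfenfluramine valve 3, a setting added for this list after seeing the data, 1 of 6 was called, PPARG at 1.29 (edgeR, Benjamini-Hochberg adjusted p = 0.028), against 11.3% called higher of the genes tested then. Nothing is read from this call, since valve 3 was set apart in part by its low adipocyte markers. The others were then at 1.08 for AQP7, 0.98 for LEP, 0.82 for ADIPOQ, 0.23 for CD36 and 0.02 for RBP4, so that the last 2 changed sign. The median over the 6 was 1.75 after pergolide, 0.79 after serotonin and 0.59 after dexfenfluramine, or 0.90 without valve 3. CEBPA, the marker with too few reads to be tested, had means of 0.199 CPM in non-treated valves and 1.65 CPM after pergolide.

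**Figure D3:**
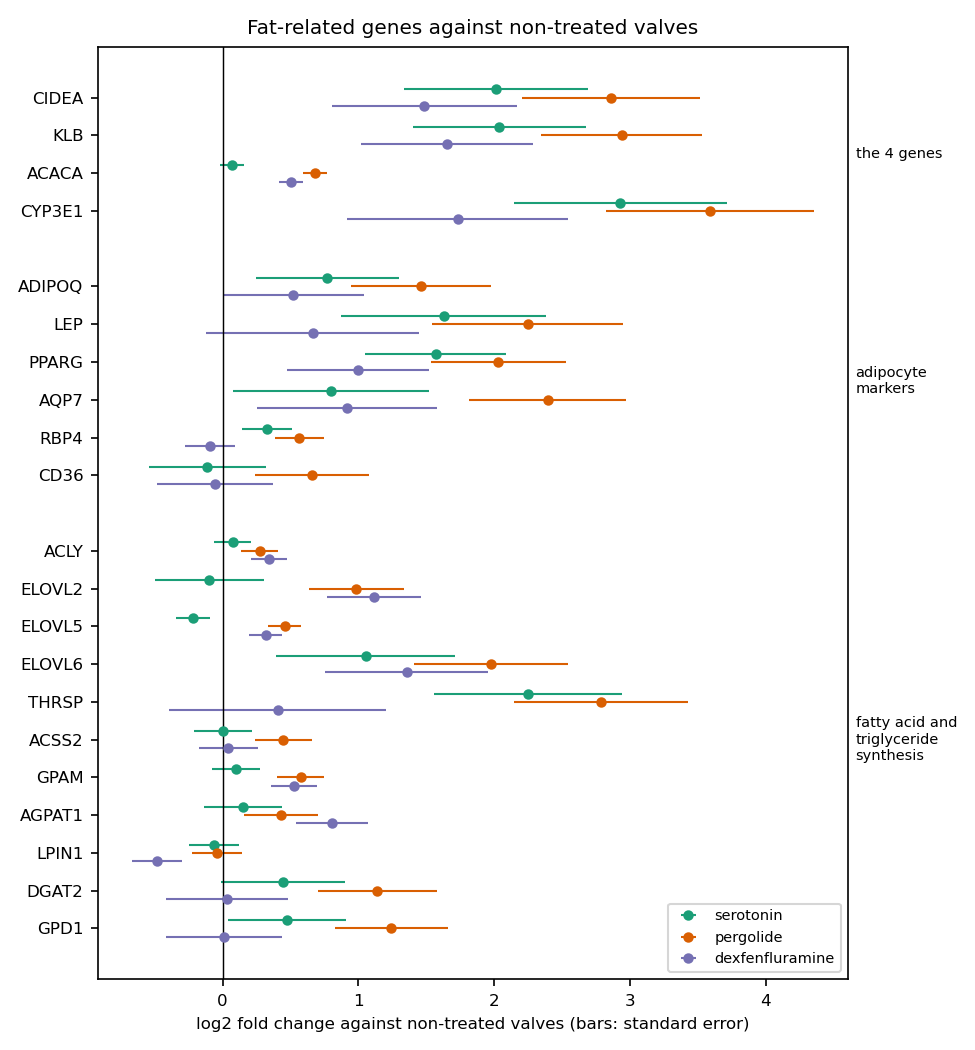
Log2 fold change against non-treated valves, with its standard error, of the 4 genes and of each tested adipocyte marker and fat synthesis gene, for 5 valves per treatment. After pergolide CYP3E1, KLB and CIDEA lie at 3.59, 2.94 and 2.86, the adipocyte markers between 0.57 and 2.39, and ACACA at 0.68.

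The summed level of the 7 adipocyte markers in non-treated valves 1 to 5 was 99.2, 83.7, 74.3, 169.1 and 85.4 CPM. It was 183.8, 96.8, 130.6, 143.5 and 100.6 CPM in serotonin valves 1 to 5. Non-treated valve 4 and serotonin valve 1 had the highest sums of their groups and the highest KLB, CIDEA and CYP3E1. At the low end this match was partial: non-treated valve 3 had the lowest sum, while KLB was lowest in valve 2, CIDEA in valve 5 and CYP3E1 in valve 3, and serotonin valve 2 had the lowest sum, KLB and CIDEA but not CYP3E1. Pergolide valves 1 to 5 summed to 284.3, 273.0, 202.5, 125.6 and 161.2 CPM. Dexfenfluramine valves 1 to 5 summed to 112.5, 160.8, 19.6, 81.8 and 206.5 CPM. Pergolide valve 4 and dexfenfluramine valve 3 had the lowest sums of their groups and the lowest KLB, CIDEA and CYP3E1. At the high end pergolide valve 1 and dexfenfluramine valve 5 had the highest sums and the highest CIDEA, while KLB and CYP3E1 were highest in valve 2 of both groups. CD36 had the highest mean CPM of the 7, not divided by gene length, and was the highest in 12 valves, ADIPOQ in 7 and RBP4 in 1. Of the 7 markers 1 was at 0 in non-treated valves 1 and 2, serotonin valve 3 and dexfenfluramine valve 3. The part of these markers in the levels of KLB, CIDEA and CYP3E1 was not tested.

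**Figure D4:**
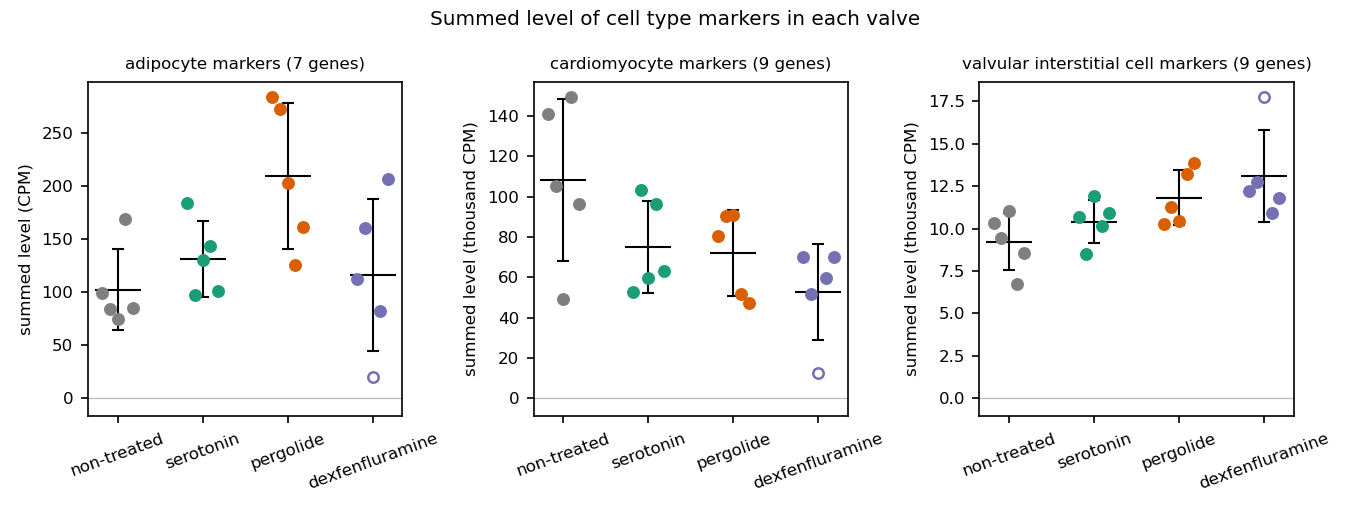
Summed level (CPM after TMM) of adipocyte, cardiomyocyte and valvular interstitial cell markers in each of 5 valves per group, with the mean and SD as bars and dexfenfluramine valve 3 as an open point. That valve has the lowest adipocyte sum, 19.6 CPM, and the lowest cardiomyocyte sum, 12325 CPM, and the highest interstitial cell sum, 17776 CPM.

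ADIPOQ, which is made almost only by fat cells, was set beside the 4 genes valve by valve. Its level was 27.1, 19.2, 16.9, 55.6 and 27.6 CPM in non-treated valves 1 to 5, and 81.1, 20.6, 54.1, 45.8 and 44.1 CPM in serotonin valves. Pergolide valves held 114.9, 116.9, 62.8, 39.0 and 64.9 CPM of ADIPOQ, and dexfenfluramine valves 42.6, 64.5, 3.06, 23.5 and 73.4 CPM. Pergolide valve 4 held less ADIPOQ than non-treated valve 4, so these groups overlapped. For each 100 reads of ADIPOQ, a non-treated valve held 2.82 to 6.67 reads of KLB, with a median of 5.33, a pergolide valve 11.3 to 18.1, with a median of 13.7, a serotonin valve a median of 12.1 and a dexfenfluramine valve a median of 8.08, or 10.7 without valve 3. For CIDEA the range was 4.17 to 31.2 reads in non-treated valves and 35.1 to 64.7 after pergolide, with medians of 40.0 after serotonin and 32.5 after dexfenfluramine, or 32.9 without valve 3. For CYP3E1 it was 7.29 to 21.1 in non-treated valves and 24.0 to 72.9 after pergolide, with medians of 30.3 after serotonin and 23.0 after dexfenfluramine, or 24.5 without valve 3. For ACACA the median was 130.7 reads after pergolide, 138.6 after serotonin, 202.5 in non-treated valves and 223.7 after dexfenfluramine, or 172.0 without valve 3. Its ranges overlapped, from 105.8 to 366.7 in non-treated and from 76.8 to 265.3 in pergolide valves. KLB, CIDEA and CYP3E1 were chosen for a large difference without overlap between pergolide and non-treated valves, so the order of their ratios in these groups is in part built in, and nothing is read from it.

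**Figure D5:**
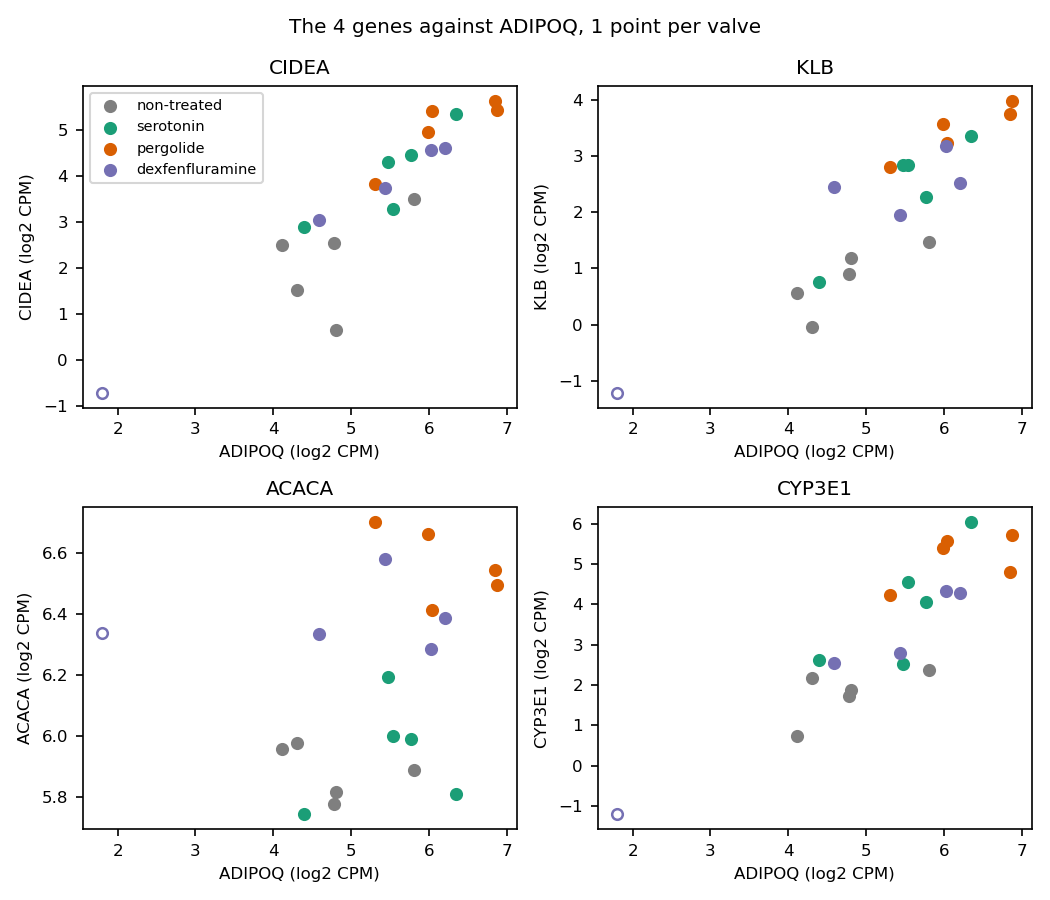
Level of each of the 4 genes against the level of ADIPOQ (both in log2 CPM, prior count 2) in the 20 valves, coloured by group, with dexfenfluramine valve 3 as an open point. The correlation of log2 CPM with ADIPOQ is 0.912 for CIDEA and 0.890 for CYP3E1, and 0.256 for ACACA. Without dexfenfluramine valve 3 it is 0.863, 0.835 and 0.479. CIDEA and CYP3E1 were chosen for their pergolide difference, so this order is in part built in and nothing is read from it.

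The likeness of genes to the 4 was measured by Pearson's r of log2 CPM over the 20 valves, which share the 4 treatment groups, as measured and again after subtracting each group's mean. It is a description with no p. KLB was most like PPARG, with r = 0.967 and 0.952 after subtraction. MGST1, a glutathione transferase, followed at 0.951, ABCD2, a peroxisomal fatty acid transporter, at 0.911, and CIDEA and CYP3E1 at 0.907 each. PPARG, MGST1 and ABCD2 were also higher after pergolide, by log2 fold changes of 2.03, 2.05 and 2.64. KLB, CIDEA and CYP3E1 were chosen for this difference. Their r as measured with genes that share it is therefore in part built in, and nothing is read from it. After subtraction ADIPOQ at 0.913, MGST1 at 0.904, a gene without a symbol at 0.889 and PTGER3, a prostaglandin receptor, at 0.846 came next to KLB. CIDEA was most like LEP, with r = 0.949 and 0.920 after subtraction, and then MGST1 at 0.937, PPARG at 0.935, ADIPOQ at 0.912 and KLB at 0.907. After subtraction ADIPOQ at 0.907, MGST1 at 0.888, PPARG at 0.886 and a gene without a symbol at 0.877 followed LEP. CYP3E1 was most like PPARG at 0.924, KLB at 0.907, ABCD2 at 0.902, ADIPOQ at 0.890 and MGST1 at 0.887. After subtraction CYP3E1 was most like ADIPOQ at 0.878 and PPARG at 0.863, with 3 genes without a symbol in the other places.

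Dexfenfluramine valve 3 carried part of this likeness. Without it KLB and PPARG gave 0.951, and 0.888 after subtraction, and CIDEA and LEP gave 0.940 and 0.932. CYP3E1 and ADIPOQ gave 0.835 without it, and 0.713 after subtraction. Among the 4 genes, KLB and CYP3E1 gave 0.862 without the valve and 0.586 after subtraction, where all valves gave 0.826 after subtraction. CIDEA and KLB gave 0.861 and 0.580, against 0.832 after subtraction with all valves. CIDEA and CYP3E1 gave 0.886 and 0.789 with all valves, and 0.825 and 0.512 without valve 3.

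ACACA was less like the other 3 genes than they were like each other. KLB, CIDEA and CYP3E1 were chosen for the same pergolide difference, and ACACA by another rule. This order as measured is therefore in part built in, and nothing is read from it. The r of ACACA was 0.468 with KLB, 0.381 with CIDEA and 0.331 with CYP3E1 over the 20 valves, and 0.05, 0.01 and -0.18 after subtracting group means. These were 0.643, 0.559 and 0.484 without dexfenfluramine valve 3, and -0.05, -0.11 and -0.38 without it after subtraction. With ADIPOQ the r of ACACA was 0.256, and 0.479 without dexfenfluramine valve 3. ACACA was most like PHKB, a subunit of phosphorylase kinase, at 0.936, the ubiquitin-conjugating enzyme UBE2E3 at 0.930, CLIC4 at 0.918, the adaptor subunit AP2B1 at 0.909 and the transcription factor SP3 at 0.906. After subtraction it was most like ACSL3, which activates fatty acids, at 0.764, the iron transporter SLC11A2 at 0.744 and UBE2E3 at 0.726, with 2 genes without a symbol between and after them. Without valve 3 PHKB gave 0.944 and, after subtraction, ACSL3 gave 0.761. The median r with the 6 adipocyte markers was 0.281 for ACACA, 0.819 for CIDEA, 0.785 for CYP3E1 and 0.773 for KLB, against medians between 0.03 and 0.06 over all other tested genes. Without dexfenfluramine valve 3 it was 0.445, 0.740, 0.707 and 0.750. After subtraction the medians over all valves were -0.04 for ACACA, 0.827 for CIDEA, 0.756 for CYP3E1 and 0.764 for KLB, and without valve 3 they were -0.14, 0.564, 0.537 and 0.552. For the 9 valvular interstitial cell markers the median r was 0.431 for ACACA, 0.282 for CIDEA, 0.314 for CYP3E1 and 0.345 for KLB. Without valve 3 it was 0.440, 0.608, 0.557 and 0.615. After subtraction it was -0.12, -0.12, -0.09 and -0.17, or -0.09, 0.181, 0.171 and 0.115 without valve 3.

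Markers of other cell types were set beside the 4 genes as well. Cardiomyocyte markers, 9 of 17 with a symbol, summed to 141155, 105281, 48959, 149650 and 96238 CPM in non-treated valves 1 to 5 and to 52887, 103084, 59700, 96158 and 62896 CPM in serotonin valves. They summed to 80568, 90566, 90948, 51531 and 47294 CPM in pergolide valves and to 69852, 51718, 12325, 59439 and 70231 CPM in dexfenfluramine valves. TTN had the highest CPM of them in each valve. After pergolide edgeR, DESeq2 and limma-voom each called 0 higher and 1 lower, against 12.7% lower of all tested genes by edgeR. At an unadjusted p under 0.05 stood 5 of the 9 by edgeR and DESeq2, and 1 by limma-voom. After dexfenfluramine, with valve 3 included, edgeR called 4 lower, against 15.4%, and DESeq2 and limma-voom 7 each. After serotonin each of the 3 tools called 0, with 0 at an unadjusted p under 0.05. The edgeR shares of all tested genes there were 1.04% higher and 0.150% lower. The non-treated mean of this sum, 108257 CPM, was the highest of the groups, while KLB, CIDEA, CYP3E1 and ACACA had their lowest means there. Within groups the median r with these 9 markers, after subtracting group means, was 0.581 for KLB, 0.540 for CIDEA, 0.590 for CYP3E1 and 0.03 for ACACA. Without dexfenfluramine valve 3 it was -0.01 for KLB, -0.08 for CIDEA, 0.131 for CYP3E1 and -0.08 for ACACA. Valvular interstitial cell markers, 9 of 12 with a symbol and VIM at the highest mean CPM, summed to 10319, 9439, 11061, 6754 and 8585 CPM in non-treated valves and to 10678, 8472, 11888, 10132 and 10893 CPM in serotonin valves. They summed to 10277, 11269, 10439, 13212 and 13834 CPM in pergolide valves and to 12219, 12735, 17776, 10920 and 11815 CPM in dexfenfluramine valves. Of these 9 markers edgeR called 1 higher after serotonin, 6 after pergolide, or 7 by DESeq2 and limma-voom, and 5 after dexfenfluramine, against 1.04%, 12.1% and 13.5% of all tested genes.

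Fewer markers of other cells could be named. Endothelial markers, 2 of 10 with PECAM1 the higher in mean CPM, were both called lower after pergolide by edgeR, DESeq2 and limma-voom, with mean sums of 266.2 CPM for non-treated, 296.4 for serotonin, 165.0 for pergolide and 214.4 for dexfenfluramine valves. Macrophage markers, 2 of 10 with C1QA the higher, gave means of 16.2, 21.3, 32.9 and 28.7 CPM in the same order. Of them 1 was called higher after pergolide by each tool, and after dexfenfluramine 1 by DESeq2 and by limma-voom and 0 by edgeR. Smooth muscle markers, 3 of 7 with DES the highest, gave 427.8, 371.0, 414.4 and 315.1 CPM, with 1 called higher after pergolide by edgeR and DESeq2 and 0 by limma-voom. After dexfenfluramine each tool called 1 of them higher and 1 lower. Schwann cell markers, 2 of 5 with S100B the higher, gave 28.4, 26.9, 23.5 and 29.4 CPM, with 1 called lower after pergolide by edgeR and DESeq2 and 0 by limma-voom. Over all tested genes edgeR called 12.1% higher and 12.7% lower after pergolide, and 13.5% and 15.4% after dexfenfluramine. Of 6 erythroid and 8 mesothelial markers 0 had a symbol. The part of these cell types in the levels of KLB, ACACA, CIDEA and CYP3E1 was not tested.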

How the data were processed

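Reads per Ensembl gene are raw counts that the authors deposited. The authors depleted ribosomal RNA, made stranded libraries, aligned reads to the rabbit genome oryCun2 with TopHat2 2.1.1 and counted them with HTSeq in union mode. The strand setting and annotation release are not given in the sources used here. Counts of 23669 genes in 20 valves were scaled by TMM, filtered by filterByExpr with the 4 groups (8683 genes) and tested by edgeR 4.0.16 quasi-likelihood in R 4.3.3, with Benjamini-Hochberg adjustment, a threshold of 0.05 and 95% intervals. Log2 CPM for correlations used a prior count of 2. The test was tried on simulated data. Total counts and 5 valves per group limit the precision. Plots used matplotlib 3.10.9 in Python 3.11.15.

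The members and lists were chosen with earlier results of these data known. Symbols came from the study's supplementary list alone: 3519 gene identifiers had 1 symbol, 564 listed identifiers, that of ACACA among them, matched after 1 surplus zero was removed, and 273 did not match. Of tested genes 39.8% had a symbol. Genes named beside the 4 are the 5 most like each, as measured and after subtracting group means, every tested adipocyte marker, up to 4 genes of each other pathway list by the smallest p after pergolide and up to 2 after dexfenfluramine, and the gene of highest mean CPM in each other cell type list. Other names stand where a count of 5 or fewer is given or a gene lies next to the rule, and were chosen after their values were seen. Lists were adipocyte, brown and beige adipocyte, cardiomyocyte, valvular interstitial cell, endothelial, macrophage, erythroid, smooth muscle, mesothelial and Schwann cell markers, and genes of lipid droplets and lipases, fatty acid and triglyceride synthesis, fatty acid oxidation, klotho and FGF receptor signalling, cytochrome P450 and AMPK. Alternatives were DESeq2 1.42.0, limma-voom (limma 3.58.1), svaseq (sva 3.50.0), DESeq2 size factors, upper-quartile scaling, a minimum of 10 counts in every valve, no filter, only the groups compared, a replicate block and each valve left out. Correlations, list medians and ratios to ADIPOQ without dexfenfluramine valve 3 were added after seeing the data. Sequences and gene coordinates were not used here.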

Additional observations from a re-analysis of the deposited data

Results flagged for a closer look

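Of 52 groups of 5 valves looked at, 4 had a valve far from the others, meaning that its gap to the nearest valve took up more than 0.71 of the group's range. Chance marks about 1 in 20 groups in this way. ADIPOQ stood at 55.6 CPM in non-treated valve 4, with the nearest valve at 27.6 CPM (ratio 0.722). The summed adipocyte markers of the same valve were 169.1 CPM, with the nearest at 99.2 CPM (ratio 0.737). LEP stood at 11.4 CPM in serotonin valve 1, with the nearest at 3.93 CPM (ratio 0.715). The summed valvular interstitial cell markers of dexfenfluramine valve 3 were 17776 CPM, with the nearest at 12735 CPM (ratio 0.735). CIDEA, KLB, ACACA and CYP3E1 themselves had no such valve in any group.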

How the results depend on the processing

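For CIDEA, KLB, ACACA and CYP3E1, 75 of 79 tested values under other settings and 97 of 100 with 1 valve left out kept their direction and their side of the threshold, and the other 4 and 3 passed it. The 51 and 60 values without a test kept their direction. With DESeq2 the serotonin difference was 2.01 for KLB (adjusted p = 0.041) and 2.84 for CYP3E1 (adjusted p = 0.030), and the dexfenfluramine difference of KLB was 1.62 (adjusted p = 0.027). With upper-quartile scaling the last was 1.69 (adjusted p = 0.048). Nothing is read from these p values, since the non-treated valves entered the choice of KLB and CYP3E1. With 1 valve left out, the dexfenfluramine difference ran from 1.18 to 1.93 for CIDEA (adjusted p 0.021 to 0.24), 1.27 to 1.97 for KLB (0.0041 to 0.17) and 1.34 to 2.05 for CYP3E1 (0.037 to 0.27), with an adjusted p under the threshold only without dexfenfluramine valve 3 (1.80, 1.97 and 2.05), from which nothing is read either. Against serotonin, dexfenfluramine ran from -0.84 to -0.06 for CIDEA, -0.76 to -0.07 for KLB and -1.58 to -0.30 for CYP3E1, and the serotonin difference of ACACA from 0.00 to 0.11. With limma-voom the dexfenfluramine difference from non-treated valves was 0.85 for CIDEA, 0.78 for KLB and 0.59 for CYP3E1. Genes called after serotonin, 103, became 234 with DESeq2, 53 with its size factors, 48 without a filter, 58 with at least 10 counts in every valve, 246 with 4 svaseq surrogate variables, 0 with only the groups compared and 1 with the replicate block. They ran from 0 to 257 with 1 valve left out (0 without non-treated valve 2 or 5 or serotonin valve 1, 257 and 3 without non-treated valves 3 and 4, and 4, 21 and 50 without serotonin valves 2, 4 and 5). Upper-quartile scaling changed the split of these calls from 90 higher and 13 lower to 55 and 19, and turned the balance for pergolide (1052 and 1105 to 1112 and 1029), dexfenfluramine (1175 and 1335 to 1370 and 1185) and dexfenfluramine against serotonin (1207 and 1424 to 1474 and 1255). Genes called after dexfenfluramine became 1500 with surrogate variables. Adipocyte markers called higher after pergolide, 5, became 3 with limma-voom, 2 with at least 10 counts and 3 with the replicate block, and ran from 2 to 5 with 1 valve left out (2 without non-treated valve 2 or 5, 3 without pergolide valve 1, 2 or 5). After dexfenfluramine they ran from 0 to 1, in a setting added after seeing the data, with 1 only without valve 3, a call from which nothing is read. Fat synthesis genes called higher after pergolide, 6, became 3 with at least 10 counts, and ran from 4 to 8 with 1 valve left out. The causes were not tested, other than fewer genes under a filter and fewer valves by construction. With the replicate block the serotonin difference was 2.85 for CYP3E1, 1.98 for KLB, 1.84 for CIDEA and 0.07 for ACACA. The labels do not say whether equal replicate numbers pair valves. Residuals of equal numbers gave r from -0.34 to 0.492, above 0.1 in 6 of 30 pairs. No r of unequal numbers was set beside these, so they cannot decide whether a pairing exists. CIDEA, KLB and CYP3E1 have no value with at least 10 counts in every valve, nor KLB with only the groups compared against non-treated valves by serotonin or dexfenfluramine. Depth limits KLB most, with 2 to 8 reads in non-treated valves.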
